A study of Mus musculus with 6 samples.

Results

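The contractile apparatus of smooth muscle was followed through 32 genes in mouse prostates, 4 from castrated and 2 from intact males. The genes were taken by symbol from a fixed list of contractile and structural genes of prostate smooth muscle. All 32 were among the 24421 gene symbols measured, and 31 passed the filter on low values, against 13898 genes in all. The gene left out was Myocd. Animals of both groups carried the transgene PB-Cre4, which makes Cre recombinase under the probasin promoter in prostate epithelium, together with the same homozygous LoxP allele. The deletion it causes is therefore shared by castrated and intact samples, and smooth muscle is not its target. The labels name prostate as the tissue and give neither the age nor the time since castration. They do not say whether the samples came from separate animals, and p-values therefore cover sample-to-sample spread that could be technical.

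Smooth muscle cells surround the epithelial ducts of the prostate and line its blood vessels. They contract when calcium and calmodulin activate myosin light chain kinase, which phosphorylates the regulatory light chain of the smooth muscle myosin, and they relax when myosin phosphatase removes that phosphate. Thin filaments of smooth muscle actin carry tropomyosin, caldesmon and calponin, and they are anchored at dense bodies and membrane plaques together with desmin intermediate filaments. Many of the genes are driven by serum response factor with its coactivator myocardin, through a promoter element called the CArG box. Castration removes the main source of androgens, and the epithelium of the prostate shrinks while stroma remains. Several listed genes, among them Flna, Vcl, Actn1, Csrp1 and Tpm1, are also widely expressed in epithelial and other cells.

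RNA was sequenced at 43679297 to 59170793 reads per sample counted in genes. Values are rescaled CPM, the deposited CPM (read counts scaled to the same total in every sample) divided by a size factor of 0.9806 to 1.0496 for each sample. The luminal keratin gene Krt8 was at 1532 to 2499 in castrated and 1926 to 2331 in intact samples, and 6 seminal vesicle genes summed to at most 0.161 in any sample. Every pair of samples differed by more than counting noise (chi-square of at least 63.1 for each degree of freedom), and the labels name no batch.

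The promoters are shown because the CArG box is the element that smooth muscle genes share. RefSeq promoter windows, from 250 bases before to 50 bases after a start site in GRCm38.p6, were found for 27 of the 32 genes, and 4 of these 27 held a CArG box. On either strand the element occurred in 488 of 27025 genes with a window, or 1.81%, and in 1.63% of the 32851 windows. The count is a description of letters in these windows. Every match printed below reads CC, then only A or T, then GG, 10 bases in all. A window without a match says nothing about elements elsewhere, or about elements of another form within it. The windows of the 4 genes are printed 5′ to 3′ on the strand of the gene, with the CArG box in capitals. They are Vcl at chr14:20929148-20929447 on the plus strand, Fhl1 at chrX:56779433-56779732 on the plus strand, Myl9 at chr2:156775214-156775513 on the plus strand and Ldb3 at chr14:34588632-34588931 on the minus strand.
Vcl: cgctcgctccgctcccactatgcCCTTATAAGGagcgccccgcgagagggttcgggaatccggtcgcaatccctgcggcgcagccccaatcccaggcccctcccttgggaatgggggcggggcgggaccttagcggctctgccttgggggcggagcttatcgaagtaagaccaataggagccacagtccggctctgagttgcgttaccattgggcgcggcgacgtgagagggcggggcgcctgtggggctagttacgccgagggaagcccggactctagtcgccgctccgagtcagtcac
Fhl1: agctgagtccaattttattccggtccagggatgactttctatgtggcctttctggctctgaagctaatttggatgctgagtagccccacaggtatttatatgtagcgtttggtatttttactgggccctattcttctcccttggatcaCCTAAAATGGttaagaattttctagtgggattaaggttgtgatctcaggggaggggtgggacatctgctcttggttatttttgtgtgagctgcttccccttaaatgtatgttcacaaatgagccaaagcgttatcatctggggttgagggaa
Myl9: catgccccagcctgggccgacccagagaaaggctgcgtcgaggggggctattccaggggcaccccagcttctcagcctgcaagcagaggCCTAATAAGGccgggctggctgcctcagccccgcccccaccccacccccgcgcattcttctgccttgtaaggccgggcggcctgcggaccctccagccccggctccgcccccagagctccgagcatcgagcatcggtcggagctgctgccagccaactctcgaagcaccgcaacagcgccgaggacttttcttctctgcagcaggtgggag
Ldb3: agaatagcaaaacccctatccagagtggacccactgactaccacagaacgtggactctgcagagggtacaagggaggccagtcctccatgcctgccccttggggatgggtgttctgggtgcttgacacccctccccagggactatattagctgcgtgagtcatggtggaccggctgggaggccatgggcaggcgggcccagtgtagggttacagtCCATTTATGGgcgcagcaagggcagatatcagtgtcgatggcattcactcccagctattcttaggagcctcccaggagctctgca
The element ended 217 bases before the start site in Vcl, 92 in Fhl1, 151 in Myl9 and 25 in Ldb3. The window of Fhl1 is 1 of its 2 windows, and both windows of Ldb3 overlap and hold the same element. Fhl1 was the listed gene that rose past the threshold, and Myl9, Ldb3 and Vcl overlapped between the groups. Vcl had a log2 difference of -0.28 with a 95% interval of -0.68 to 0.12. Whether the element bears on these differences was not tested. Nexn, Tagln, Myh11, Actg2 and Myocd had no entry in the promoter table.

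The comparison asks whether contractile genes differ between castrated and intact prostates. Fhl1, a LIM domain gene of muscle, rose 2.81-fold and Synm, which encodes the intermediate filament protein synemin, fell 2.34-fold in castrated samples. These were the genes of the list past the threshold: 1 of 31 rose and 1 of 31 fell, where 0.698% of all 13898 genes rose and 1.27% fell (limma, Benjamini-Hochberg adjusted p under 0.05). Among genes used as markers of differentiated smooth muscle, Myh11, Cnn1, Synpo2, Lmod1, Tagln, Mylk and Acta2 had every castrated sample above both intact samples without passing the threshold, while Smtn, Des and Actg2 overlapped. In 11 of the 31 genes the castrated samples all lay higher, against 13.4% of all tested genes, and in 3 (Synm, Csrp1 and Actn1) all lay lower, against 13.2%. The median log2 difference of the 31 genes was 0.51, against 0.00 over all tested genes, and 19 of the 31 lay above 0 where 50.1% of all tested genes did. That median was 0.27 after quantile normalization, 0.30 without castrated sample 1, 0.32 without castrated sample 2 and 0.34 without intact sample 2.

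Other tools counted the calls differently. Called higher were 0 genes by edgeR and 11 by DESeq2, where they called 0.389% and 4.76% of all genes higher. Called lower were 1 gene by edgeR and 2 by DESeq2, where they called 1.07% and 4.54% of all genes lower. At an unadjusted p under 0.05 in limma 11 genes lay higher and 2 lower, against 7.84% and 8.06% of all genes. Castrated sample 4 correlated with castrated samples 1, 2 and 3 over all tested genes at 0.941, 0.97 and 0.954. Correlations between the groups were 0.941 to 0.952. In the fit without castrated sample 4, 3 listed genes rose (Fhl1, Itga8 and Pdlim3) and 2 fell (Synm and Csrp1), against 3.38% and 4.25% of all genes. With array weights 5 rose and 2 fell, against 3.02% and 3.84% of all genes. With the replicate number as a block 6 rose and 0 fell, against 1.27% and 1.73%. In the block fit the difference comes only from castrated samples 1 and 2 against intact samples 1 and 2. Castrated samples 3 and 4 have no intact sample of the same number and add nothing to it. In bulk tissue, more cells of a type and more RNA per cell cannot be told apart.

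**Figure D1:**
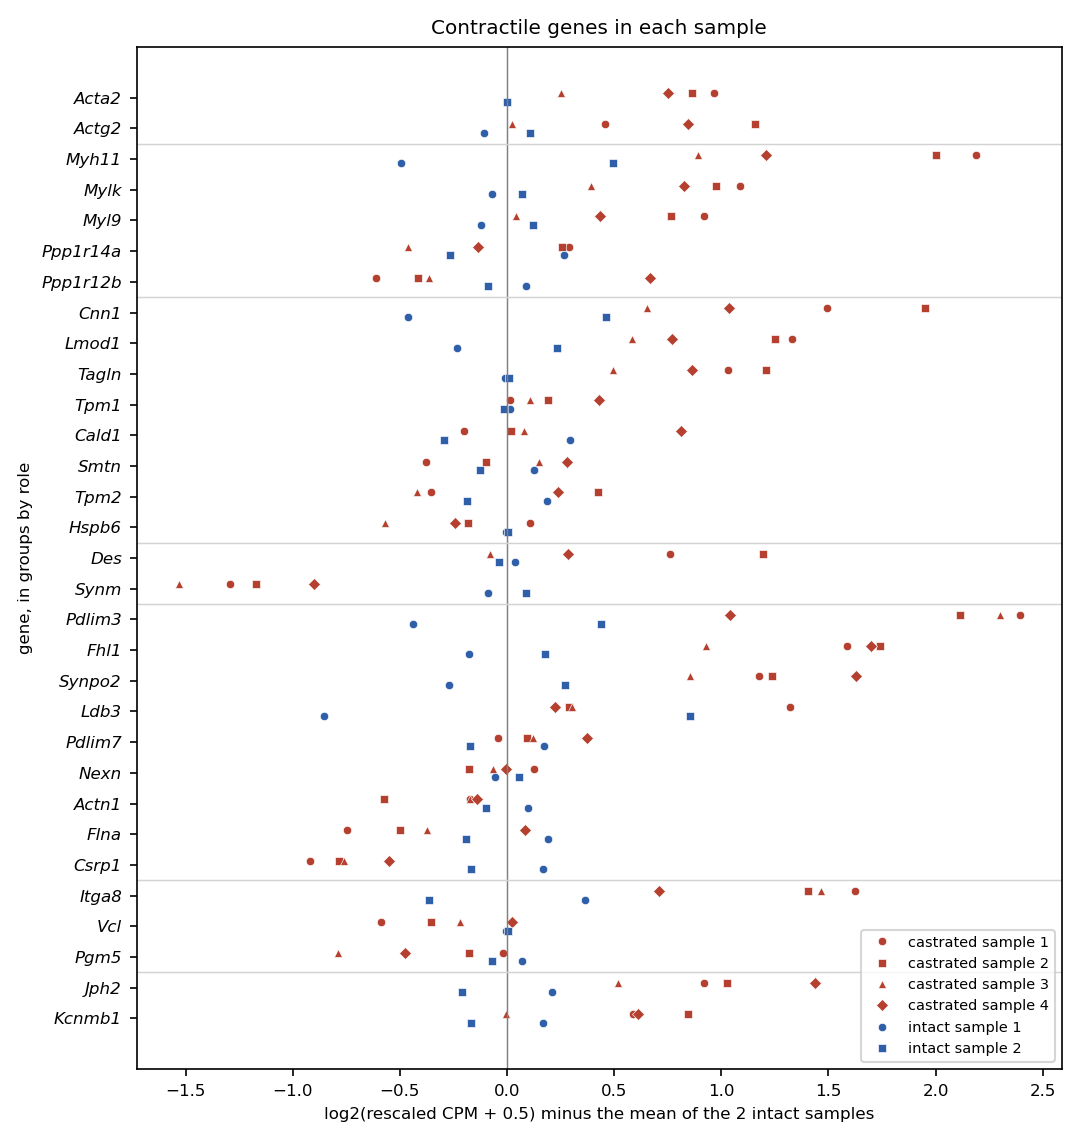
The 31 tested contractile genes in each sample, as log2(rescaled CPM + 0.5) minus the mean of the 2 intact samples, with castrated samples in red and intact samples in blue and grey lines between roles. Castrated samples lie to the right of both intact samples in 11 genes, among them Myh11, Cnn1 and Fhl1, and to the left in Synm, Csrp1 and Actn1.

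The actins of smooth muscle were both higher on average in castrated samples, and neither passed the threshold. Acta2, alpha smooth muscle actin (chromosome 19, 34241090 to 34255590), had 146, 136, 89 and 126 rescaled CPM in castrated samples 1 to 4, against 74.5 and 74.6 in intact samples 1 and 2. Every castrated sample lay above the intact pair, which were nearly equal. The log2 difference was 0.71 with a 95% interval of 0.23 to 1.18 (limma adjusted p = 0.143). Actg2, gamma smooth muscle actin of visceral muscle (chromosome 6, 83512905 to 83536265), had 9.82, 16.3, 7.14 and 13 rescaled CPM in castrated samples 1 to 4, against 6.49 and 7.59 in intact samples 1 and 2. Castrated sample 3 lay between the intact samples, and the log2 difference was 0.62 with a 95% interval of -0.14 to 1.38 (limma adjusted p = 0.412). Of the windows of 50 bases in the longest transcript, 0.352% of those of Acta2 and 0% of those of Actg2 also occur in transcripts of another gene. Per kilobase of exon, Acta2 was at 56.5 ± 11.3 rescaled CPM in castrated and 33.9 ± 0.0514 in intact samples, and Actg2 at 7.43 ± 2.56 and 4.52 ± 0.498 (SD, n = 4 and 2). The nonmuscle actins were far more abundant on that scale, with Actb at 428 ± 27 and 528 ± 55.8 and Actg1 at 1009 ± 116 and 1244 ± 105. Their log2 differences had the other sign, at -0.30 for Actb and -0.31 for Actg1 (limma adjusted p = 0.349 and 0.507).

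Among the myosin genes the smooth muscle heavy chain differed most. Myh11, the heavy chain that defines smooth muscle myosin (chromosome 16, 14194535 to 14291372), had 62.1, 54.4, 24.9 and 31.2 rescaled CPM in castrated samples 1 to 4, against 9.24 and 18.8 in intact samples 1 and 2. All castrated samples lay above both intact samples, but the intact samples differed 2.03-fold between themselves. The log2 difference was 1.57 with a 95% interval of 0.51 to 2.63 (limma adjusted p = 0.144), and it was 1.08 without intact sample 1 and 2.06 without intact sample 2. Mylk, the kinase that starts contraction (chromosome 16, 34745210 to 35002420), had 34.5, 31.9, 21.1 and 28.7 rescaled CPM in castrated samples 1 to 4, against 15.2 and 16.8 in intact samples 1 and 2. Its groups did not overlap, with a log2 difference of 0.82 with a 95% interval of 0.32 to 1.31 (limma adjusted p = 0.112). An antisense gene or genes cover 6.85% of the exon bases of Mylk. Myl9, the regulatory light chain that Mylk phosphorylates (chromosome 2, 156775420 to 156781658), had 32.6, 29.2, 17.5 and 23.1 rescaled CPM in castrated samples 1 to 4, against 15.6 and 18.5 in intact samples 1 and 2. Castrated sample 3 lay below intact sample 2, and the log2 difference was 0.54 with a 95% interval of -0.07 to 1.15 (limma adjusted p = 0.367).

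The listed genes of the phosphatase side overlapped between the groups, with wide intervals. Ppp1r12b, a targeting subunit of myosin phosphatase (chromosome 1, 134754658 to 134955942), had 2.41, 2.83, 2.96 and 6.57 rescaled CPM in castrated samples 1 to 4, against 4.23 and 3.68 in intact samples 1 and 2. Castrated sample 4 was above and the other castrated samples below the intact pair, for a log2 difference of -0.18 with a 95% interval of -1.08 to 0.72 (limma adjusted p = 0.88). Ppp1r14a, which encodes the phosphatase inhibitor CPI-17 (chromosome 7, 29289308 to 29293801), had 1.88, 1.83, 0.912 and 1.27 rescaled CPM in castrated samples 1 to 4, against 1.84 and 1.12 in intact samples 1 and 2. The groups overlapped almost fully, with a log2 difference of -0.01 with a 95% interval of -0.78 to 0.75 and an interval that allows change either way (limma adjusted p = 0.992). Both were weakly expressed, with 862 and 332 reads summed over the castrated samples and 392 and 143 over the intact samples.

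The nonmuscle heavy chain Myh9 was at 63.7 ± 6.02 rescaled CPM per kilobase in castrated and 65.2 ± 5.87 in intact samples, against 5.68 ± 2.36 and 1.85 ± 0.889 for Myh11 (SD, n = 4 and 2). Myh10, another nonmuscle heavy chain, was at 2.76 ± 0.635 and 3.28 ± 0.117 on that scale. Myh11 thus lay above Myh10 on average in castrated samples and below it in intact samples. The log2 differences of Myh9 and Myh10 were -0.04 and -0.28 (limma adjusted p = 0.944 and 0.633).

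**Figure D2:**
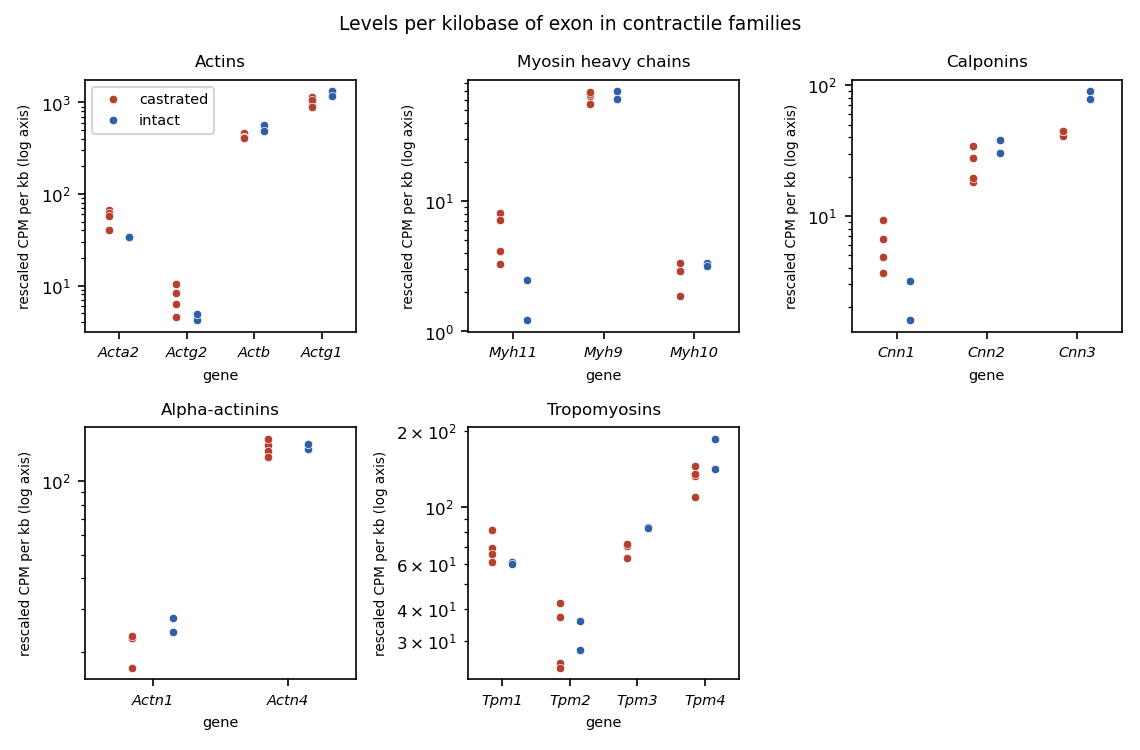
Levels in each sample per kilobase of exon, in rescaled CPM on log axes, for actins, myosin heavy chains, calponins, alpha-actinins and tropomyosins, with castrated samples (red, left) and intact samples (blue, right) of each gene. Acta2, Myh11 and Cnn1 lie higher in castrated samples, and the nonmuscle genes Actb and Cnn3 lower on average.

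Of the 8 thin filament genes, Cnn1, Tagln and Lmod1 lay apart between the groups and the others overlapped. Cnn1, the smooth muscle calponin (chromosome 9, 22099216 to 22109630), had 18.3, 25.3, 10 and 13.2 rescaled CPM in castrated samples 1 to 4, against 4.34 and 8.7 in intact samples 1 and 2. Tagln, the actin-binding protein transgelin or SM22 (chromosome 9, 45929619 to 45936058), had 142, 160.3, 97.7 and 126 rescaled CPM in castrated samples 1 to 4, against 68.6 and 69.6 in intact samples 1 and 2. Lmod1, leiomodin of smooth muscle, which nucleates actin (chromosome 1, 135324807 to 135368065), had 5.58, 5.26, 3.12 and 3.62 rescaled CPM in castrated samples 1 to 4, against 1.56 and 2.34 in intact samples 1 and 2. In all of these every castrated sample lay above both intact samples, and castrated sample 3 was the lowest of the castrated group. The log2 difference was 1.28 with a 95% interval of 0.30 to 2.27 for Cnn1 (limma adjusted p = 0.187). It was 0.90 with a 95% interval of 0.44 to 1.36 for Tagln (limma adjusted p = 0.0796) and 0.98 with a 95% interval of 0.28 to 1.68 for Lmod1 (limma adjusted p = 0.165). Cnn1 differed 2.00-fold between the intact samples, so its log2 difference was 0.82 without intact sample 1 and 1.75 without intact sample 2. Tagln differed 1.01-fold between them, and it kept a log2 difference of 0.80 to 1.04 with any sample left out. Genes on the other strand cover 67.9% of the exon bases of Tagln. Of these the convertase gene Pcsk7 covers 5.43%, and it had a log2 difference of -0.34. Use of the strand in counting is not stated in the labels.

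Tropomyosins, caldesmon and smoothelin lay close to each other between the groups. Tpm1 (chromosome 9, 67022590 to 67049406) had 397, 449, 424 and 529.6 rescaled CPM in castrated samples 1 to 4, against 397 and 389.9 in intact samples 1 and 2. Tpm2 (chromosome 4, 43514711 to 43523765) had 71.4, 123, 68.3 and 108 rescaled CPM in castrated samples 1 to 4, against 104 and 80.4 in intact samples 1 and 2. Both encode tropomyosins, which lie along the actin filament, and their log2 differences were 0.18 with a 95% interval of -0.14 to 0.51 and -0.03 with a 95% interval of -0.68 to 0.63 (limma adjusted p = 0.586 and 0.98). Cald1, caldesmon, an inhibitor of the myosin ATPase on thin filaments (chromosome 6, 34598500 to 34775473), had 54.2, 63.2, 66.1 and 109.9 rescaled CPM in castrated samples 1 to 4, against 76.6 and 50.9 in intact samples 1 and 2. Only castrated sample 4 stood out above the intact samples, and the log2 difference was 0.18 with a 95% interval of -0.54 to 0.90 (limma adjusted p = 0.844). Smtn, smoothelin of contractile smooth muscle (chromosome 11, 3517523 to 3540612), had 48.4, 58.8, 69.8 and 76.6 rescaled CPM in castrated samples 1 to 4, against 68.7 and 57.7 in intact samples 1 and 2. Its groups overlapped, with a log2 difference of -0.01 with a 95% interval of -0.48 to 0.46 (limma adjusted p = 0.989), and an antisense gene or genes cover 16.3% of its exon bases. Hspb6, a small heat shock protein that takes part in relaxation (chromosome 7, 30552178 to 30555443), had 5.94, 4.76, 3.52 and 4.54 rescaled CPM in castrated samples 1 to 4, against 5.46 and 5.48 in intact samples 1 and 2. The intact pair lay within the castrated range, with a log2 difference of -0.22 with a 95% interval of -0.75 to 0.31 (limma adjusted p = 0.703).

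Per kilobase of exon Tpm1 was at 69.4 ± 8.85 rescaled CPM in castrated and 60.7 ± 0.754 in intact samples. Its relative Tpm3 was in that range, at 69.2 ± 3.85 and 83.6 ± 0.614 (SD, n = 4 and 2). Cnn1 was at 6.10 ± 2.44 and 2.38 ± 1.13, below its relatives Cnn2 at 24.9 ± 7.48 and 34.3 ± 5.78 and Cnn3 at 43.4 ± 1.64 and 84.2 ± 7.71. Cnn3, the acidic calponin of many cell types, fell 1.93-fold in castrated samples, a log2 difference of -0.95 (limma adjusted p = 0.0101). The call was lost without castrated sample 3 (limma adjusted p = 0.0517) and without intact sample 1 or 2 (limma adjusted p = 0.126 and 0.096). An antisense gene or genes cover 17.7% of the exon bases of Cnn3.

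The intermediate filament genes had differences of opposite sign, and 1 passed the threshold. Synm (chromosome 7, 67730160 to 67759742) had 7.87, 8.61, 6.59 and 10.5 rescaled CPM in castrated samples 1 to 4, against 18.8 and 21.3 in intact samples 1 and 2. The castrated samples all lay below the intact pair, at 8.39 ± 1.63 in castrated (SD, n = 4) and 20.1 ± 1.79 in intact samples (SD, n = 2). Synm fell with a log2 difference of -1.23 with a 95% interval of -1.71 to -0.75 (limma adjusted p = 0.0405, edgeR adjusted p = 0.0484). The call was lost without castrated sample 1, 2 or 3 (limma adjusted p = 0.0969, 0.113 and 0.0892) and without intact sample 1 or 2 (limma adjusted p = 0.225 and 0.262), while the log2 difference stayed within -1.34 to -1.12. It was also lost on the CPM as deposited (limma adjusted p = 0.0518), with no filter on low values (limma adjusted p = 0.0756) and with the replicate number as a block (limma adjusted p = 0.0511). An antisense gene or genes cover 6.43% of the exon bases of Synm. Of these Ttc23 covers 1.06%, and it had a log2 difference of -0.54 (limma adjusted p = 0.112). The part of Ttc23 in the Synm value was not tested. Des, desmin, the main intermediate filament of muscle (chromosome 1, 75360329 to 75368579), had 49.5, 67.2, 27.5 and 35.5 rescaled CPM in castrated samples 1 to 4, against 29.8 and 28.3 in intact samples 1 and 2. Castrated samples 1 and 2 were well above the intact pair, castrated sample 4 was above it and castrated sample 3 was below it. The log2 difference of Des was 0.54 with a 95% interval of -0.26 to 1.34 (limma adjusted p = 0.512). Synemin forms filaments together with desmin, and it is also made in other cells.

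LIM and PDZ proteins of the dense body and sarcomere held both the gene that rose and the largest difference of the list. Fhl1 (chromosome X, 56731787 to 56793346) had 60.1, 66.9, 37.9 and 64.9 rescaled CPM in castrated samples 1 to 4, against 17.3 and 22.3 in intact samples 1 and 2. Every castrated sample was at least as high as 37.9, above the higher intact value of 22.3, and the means were 57.5 ± 13.4 in castrated (SD, n = 4) and 19.8 ± 3.5 in intact samples (SD, n = 2). Fhl1 rose with a log2 difference of 1.49 with a 95% interval of 0.89 to 2.09 (limma adjusted p = 0.0434). Its call was lost without castrated sample 1 or 2 (limma adjusted p = 0.107 and 0.114), without intact sample 1 or 2 (limma adjusted p = 0.304 and 0.207), in edgeR (adjusted p = 0.0559), with no filter on low values (limma adjusted p = 0.0756) and with no mean-variance trend (limma adjusted p = 0.0611). The log2 difference lay between 1.31 and 1.68 with any sample left out.

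Pdlim3, a PDZ and LIM protein that binds alpha-actinin (chromosome 8, 45885461 to 45919548), had 10.9, 8.9, 10.2 and 3.96 rescaled CPM in castrated samples 1 to 4, against 1.1 and 2.44 in intact samples 1 and 2. It had the largest mean difference of the 31 genes, 3.90-fold on the log2(value + 0.5) scale, with castrated sample 4 the lowest of its group yet above both intact samples. The log2 difference was 1.96 with a 95% interval of 0.89 to 3.04 (limma adjusted p = 0.0915), and it passed the threshold without castrated sample 4 (limma adjusted p = 0.0113). Synpo2, synaptopodin-2, an actin-bundling protein of muscle (chromosome 3, 123076519 to 123236149), had 6.41, 6.7, 5.03 and 8.95 rescaled CPM in castrated samples 1 to 4, against 2.03 and 3.19 in intact samples 1 and 2. Its groups did not overlap, for a log2 difference of 1.22 with a 95% interval of 0.57 to 1.88 (limma adjusted p = 0.0873). Ldb3, a PDZ and LIM protein of the muscle Z-disc (chromosome 14, 34526603 to 34588682), had 2.5, 0.967, 0.982 and 0.902 rescaled CPM in castrated samples 1 to 4, against 0.163 and 1.67 in intact samples 1 and 2. The intact samples differed 10.2-fold between themselves, and the log2 difference was 0.53 with a 95% interval of -0.79 to 1.86 (limma adjusted p = 0.713). Its sign turned without intact sample 1, at -0.33.

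Csrp1, a LIM protein that binds alpha-actinin and zyxin (chromosome 1, 135720061 to 135752232), had 202, 222, 226 and 261 rescaled CPM in castrated samples 1 to 4, against 429.6 and 341 in intact samples 1 and 2. All castrated samples lay below both intact samples, at a log2 difference of -0.75 with a 95% interval of -1.09 to -0.41 (limma adjusted p = 0.0587). It passed without castrated sample 4 (limma adjusted p = 0.0187). Per kilobase it was the most abundant of the 32 genes in both groups, at 116 ± 12.4 rescaled CPM in castrated and 197 ± 32.2 in intact samples (SD, n = 4 and 2). Actn1, an alpha-actinin that crosslinks actin (chromosome 12, 80167547 to 80260371), had 126, 95.4, 126 and 129 rescaled CPM in castrated samples 1 to 4, against 152 and 133 in intact samples 1 and 2. Its groups lay apart by little, 129 in the highest castrated against 133 in the lower intact sample, and the log2 difference was -0.26 with a 95% interval of -0.62 to 0.09 (limma adjusted p = 0.462). Flna, filamin A, an actin crosslinker of most cells (chromosome X, 74223461 to 74249820), had 310.3, 369, 403 and 552 rescaled CPM in castrated samples 1 to 4, against 596 and 456 in intact samples 1 and 2. Castrated sample 4 lay between the intact samples and the others below, with a log2 difference of -0.38 with a 95% interval of -0.95 to 0.19 (limma adjusted p = 0.518).

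Pdlim7, enigma, a PDZ and LIM adaptor (chromosome 13, 55495795 to 55513676), had 41.2, 45.3, 46.2 and 55.1 rescaled CPM in castrated samples 1 to 4, against 48 and 37.6 in intact samples 1 and 2. Nexn, nexilin, an actin-binding protein of muscle (chromosome 3, 152236982 to 152266350), had 24.6, 19.8, 21.5 and 22.4 rescaled CPM in castrated samples 1 to 4, against 21.6 and 23.4 in intact samples 1 and 2. Both overlapped between the groups. Nexn had the narrowest interval of the list, a log2 difference of -0.03 with a 95% interval of -0.33 to 0.27 (limma adjusted p = 0.95), and Pdlim7 had 0.14 with a 95% interval of -0.23 to 0.51 (limma adjusted p = 0.742).

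At the membrane, Itga8, the integrin alpha-8 chain of smooth muscle and other mesenchymal cells (chromosome 2, 12106632 to 12301922), had 22.7, 19.4, 20.3 and 11.8 rescaled CPM in castrated samples 1 to 4, against 9.17 and 5.35 in intact samples 1 and 2. Its groups did not overlap, with castrated sample 4 the lowest castrated sample, and the log2 difference was 1.30 with a 95% interval of 0.55 to 2.06 (limma adjusted p = 0.104). Without castrated sample 4 it passed the threshold (limma adjusted p = 0.0191). The antisense gene E030013I19Rik covers 5.05% of the exon bases of Itga8 and was at 0.531 to 6.37 rescaled CPM in castrated and 0.174 to 0.467 in intact samples. Its part in the Itga8 value was not tested. Vcl, vinculin, which ties actin to integrin plaques (chromosome 14, 20929398 to 21033676), had 126, 148, 163 and 193 rescaled CPM in castrated samples 1 to 4, against 189 and 190.2 in intact samples 1 and 2. Castrated samples 1, 2 and 3 lay below the intact pair and castrated sample 4 above, for a log2 difference of -0.28 with a 95% interval of -0.68 to 0.12 (limma adjusted p = 0.489). Exons of the antisense gene Ap3m1 cover 25.5% of those of Vcl, and Ap3m1 had a log2 difference of 0.02. Pgm5, aciculin, a phosphoglucomutase relative found at muscle adherens junctions (chromosome 19, 24683016 to 24861855), had 18.3, 16.3, 10.5 and 13.2 rescaled CPM in castrated samples 1 to 4, against 19.5 and 17.6 in intact samples 1 and 2. Its groups overlapped, with a log2 difference of -0.37 with a 95% interval of -0.92 to 0.19 (limma adjusted p = 0.521).

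Membrane and calcium genes were low throughout. Jph2, junctophilin-2, which holds the sarcoplasmic reticulum near the plasma membrane (chromosome 2, 163336242 to 163397993), had 7.53, 8.13, 5.58 and 11 rescaled CPM in castrated samples 1 to 4, against 4.41 and 3.16 in intact samples 1 and 2. All castrated samples lay above both intact samples, with a log2 difference of 0.98 with a 95% interval of 0.30 to 1.66 (limma adjusted p = 0.154). Kcnmb1, the beta-1 subunit of the calcium-activated potassium channel (chromosome 11, 33963013 to 33973641), had 1.76, 2.2, 0.999 and 1.8 rescaled CPM in castrated samples 1 to 4, against 1.19 and 0.837 in intact samples 1 and 2. Castrated sample 3 lay between the intact samples and the others above them, for a log2 difference of 0.51 with a 95% interval of -0.22 to 1.24 (limma adjusted p = 0.493). Myocd, the coactivator myocardin (chromosome 11, 65176561 to 65269989), stayed under the filter and was not tested. Myocd had 0.588, 0.465, 0.14 and 0.419 rescaled CPM in castrated samples 1 to 4, against 0.163 and 0.122 in intact samples 1 and 2, from 91 reads over the castrated and 14 over the intact samples.

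**Figure D3:**
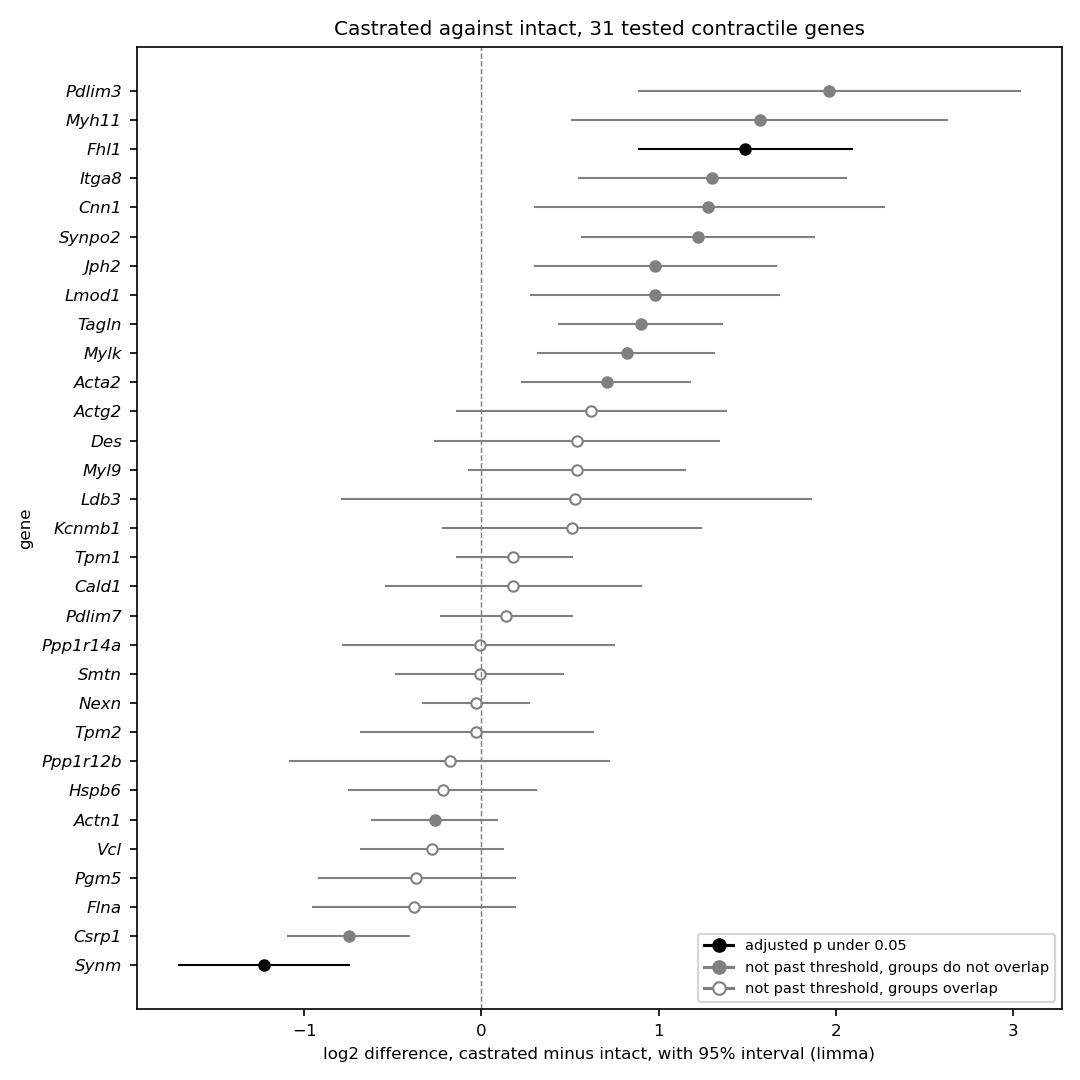
Log2 difference of each of the 31 tested contractile genes, castrated minus intact, with its 95% interval from limma. Black marks the genes past an adjusted p of 0.05, which are Fhl1 (higher) and Synm (lower), filled grey points genes whose groups do not overlap, and open points genes whose groups overlap.

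The castrated samples did not show the pattern to the same degree. Over the 31 tested genes the median distance from the intact mean on the log2 scale was 0.46 in castrated sample 1, 0.42 in sample 2, 0.08 in sample 3 and 0.43 in sample 4. Castrated sample 3 was the lowest castrated sample in 18 of the 31 genes and the highest in 0. In the 11 genes whose castrated samples all lay higher, it was the lowest in 9, and the others were Pdlim3 and Itga8, lowest in castrated sample 4. In the same 11 genes intact sample 1 was the lower of the intact pair in 9, with Itga8 and Jph2 the other way. These 11 were Acta2, Myh11, Mylk, Cnn1, Tagln, Lmod1, Fhl1, Synpo2, Pdlim3, Itga8 and Jph2, taken from the values they describe. Castrated sample 4 was the highest castrated sample in 12 genes, among them Smtn, Cald1, Tpm1, Flna, Vcl and Csrp1.

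Related genes outside the list were tested in 5 lists. The shares of all tested genes given above for limma, edgeR and DESeq2 are the background for each count. Of 20 tested regulators around serum response factor, limma called 0 higher and 0 lower, with 3 higher and 0 lower at an unadjusted p under 0.05, 0 calls in edgeR and 2 higher in DESeq2. Their median log2 difference was 0.04. The largest differences were those of the forkhead factor gene Foxf1, at 2.59 ± 0.736 rescaled CPM in castrated and 1.17 ± 0.662 in intact samples (log2 difference 0.91, limma adjusted p = 0.276), and of Klf5 (log2 difference -0.74, limma adjusted p = 0.408). Srf itself was at 47.6 to 57.8 in castrated and 55.3 to 59.3 in intact samples.

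Signalling to contraction and relaxation was measured through 31 tested genes, of which 0 rose and 1 fell. Agtr1a, the type 1a angiotensin II receptor, which makes smooth muscle contract, fell 7.92-fold on the log2(value + 0.5) scale. It had 0.209, 0.483, 0.351 and 0.209 rescaled CPM in castrated samples 1 to 4, against 3.43 and 9.85 in intact samples 1 and 2 (log2 difference -2.99, limma adjusted p = 0.0262). These castrated values all lay below the 0.5 that was added, and edgeR and DESeq2 put the log2 difference at -4.41. The call held in edgeR (adjusted p = 0.021) and was lost without castrated sample 1, 2 or 3 (limma adjusted p = 0.0784, 0.0702 and 0.0815), while without either intact sample the gene did not pass the filter. Adra1d, the alpha-1D adrenergic receptor, through which noradrenaline makes smooth muscle contract, had 27.3, 12.8, 25.3 and 4.8 rescaled CPM in castrated samples 1 to 4, against 2.43 and 2.13 in intact samples 1 and 2. All castrated samples lay above both intact samples, for a log2 difference of 2.43 with a 95% interval of 0.85 to 4.02 that did not pass the threshold (limma adjusted p = 0.133, edgeR adjusted p = 0.12, DESeq2 adjusted p = 7.51e-05). It passed without castrated sample 4 (limma adjusted p = 0.00894) and with the replicate number as a block (limma adjusted p = 0.0297). The list's median log2 difference was -0.05, with 3 genes higher and 5 lower at an unadjusted p under 0.05, 0 higher and 1 lower in edgeR, and 3 higher and 2 lower in DESeq2.

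Of 24 tested genes of other smooth muscle filament proteins, 0 rose and 1 fell, with a median of 0.06. Pdlim1, a PDZ and LIM protein of many cell types, fell 1.48-fold (log2 difference -0.57, limma adjusted p = 0.0434), a call that edgeR did not make (adjusted p = 0.0507) and that was also lost with the replicate number as a block (limma adjusted p = 0.0775). Without castrated sample 1, 2 or 3 its limma adjusted p was 0.0931, 0.134 and 0.111, and without intact sample 1 or 2 it was 0.185 and 0.281. The list had 4 genes higher and 3 lower at an unadjusted p under 0.05, 0 calls in edgeR, and 1 higher and 2 lower in DESeq2. Of 18 further tested genes of the dense plaque and dystrophin complex, limma called 0, with 3 higher and 3 lower at an unadjusted p under 0.05, 0 calls in edgeR and 1 in each direction in DESeq2. Their median was -0.12, and the widest difference was that of epsilon-sarcoglycan, Sgce (log2 difference 1.20, limma adjusted p = 0.118).

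All 13 nonmuscle actin, myosin and actin-binding genes had a log2 difference below 0, with a median of -0.28, and 1 of them, Cnn3, fell past the threshold. In 6 of the 13 the castrated samples all lay below both intact samples, against 13.2% of all tested genes. Limma called 0 higher, 0 were higher and 4 lower at an unadjusted p under 0.05, edgeR called 1 lower and DESeq2 3 lower. Over all tested genes the shares lower were 1.27% in limma, 8.06% at an unadjusted p under 0.05, 1.07% in edgeR and 4.54% in DESeq2.

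Markers of other cells moved beside the contractile genes as follows, and their part in the results was not tested. Of all tested genes, limma called 0.698% higher and 1.27% lower, and at an unadjusted p under 0.05 the shares were 7.84% and 8.06%. The shares were 0.389% and 1.07% in edgeR, and 4.76% and 4.54% in DESeq2. Fibroblast genes had a median log2 difference of -0.45 over 12 tested and summed to 899 to 2131 rescaled CPM in castrated and 1892 to 2042 in intact samples. Limma called 0 of them, with 3 lower at an unadjusted p under 0.05, 0 calls in edgeR and 2 lower in DESeq2. Among these genes Dcn was at 430.0 to 765 in castrated and 437 to 566 in intact samples, and Col3a1 at 85.2 to 378 and 458 to 569. Pericyte genes had a median of -0.12 over 7 tested and summed to 41 to 118 in castrated and 64.6 to 75.8 in intact samples, with 0 calls in limma, edgeR or DESeq2 and 0 at an unadjusted p under 0.05. Pdgfrb, the receptor that marks pericytes, was at 15.6 to 30 in castrated and 18.1 to 23.9 in intact samples, and Ndufa4l2 at 2.05 to 42.2 in castrated and 5.93 to 16.4 in intact samples. Myofibroblast genes had a median of 0.07 over 6 tested, with 0 calls in the same tools and 0 at an unadjusted p under 0.05. They summed to 224 to 801 in castrated and 334 to 343 in intact samples, with Fn1 at 105 to 377 in castrated and 151 to 153 in intact samples and Col12a1 at 40.9 to 265 in castrated and 75.6 to 79.2 in intact samples.

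Endothelial genes had a median of -0.34 over 10 tested and summed to 106 to 176 in castrated and 167 to 179 in intact samples, with 0 calls in limma, 4 lower at an unadjusted p under 0.05, 0 in edgeR and 1 lower in DESeq2. Pecam1 was at 21.5 to 37.3 in castrated and 28.6 to 35.7 in intact samples and Vwf at 15.3 to 33 in castrated and 39.3 to 41.9 in intact samples. Luminal epithelial genes had a median of -0.35 over 8 tested and summed to 7125 to 10437 in castrated and 10407 to 10559 in intact samples, with 0 calls in limma, 3 lower at an unadjusted p under 0.05, 0 in edgeR and 1 lower in DESeq2. The highest of these was Krt19, at 1502 to 2906 in castrated and 2784 to 2898 in intact samples. Basal epithelial genes had a median of -0.94 over 8 tested, and 2 of them fell, among them Lamb3 (log2 difference -1.23, limma adjusted p = 0.00813), a call lost without intact sample 1 or 2 (limma adjusted p = 0.117 and 0.096). They summed to 1017 and 1218 in castrated samples 1 and 3, to 3924 and 3197 in castrated samples 2 and 4, and to 4183 and 4575 in intact samples. Krt15 was at 263 to 1582 in castrated and 2096 to 2383 in intact samples and Krt5 at 209 to 1364 in castrated and 785 to 908 in intact samples.

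Genes of skeletal muscle bear on Des, Ldb3, Fhl1, Pdlim3 and Jph2, which that tissue also expresses. The 14 skeletal muscle genes summed to 38.3 rescaled CPM in castrated sample 1, to 8.87 to 9.87 in the other castrated samples, and to 17.4 and 15.9 in intact samples 1 and 2, of which Mb gave 12.5 and 9.54. Of these 14 genes 4 were tested, with a median log2 difference of 0.10, 0 calls in limma and edgeR, and 1 lower in DESeq2 and at an unadjusted p under 0.05. Tnni2 was at 1.56 to 4.82 in castrated and 1.19 to 2.44 in intact samples. The creatine kinase gene Ckm was at 3.02 in castrated sample 1 and at most 0.0537 in any other sample. Castrated sample 1 was also where Ldb3 was highest. Without castrated sample 1 the log2 difference was 0.27 for Ldb3, 0.47 for Des, 1.45 for Fhl1, 1.82 for Pdlim3 and 1.00 for Jph2. The heart muscle markers Myh6, Myh7, Actc1, Myl7 and Nppa were each at most 0.129 in any sample, and the tested pair of that list, Tnnt2 and Tnni3, were at 4.54 to 9.88 in castrated and 6.07 to 8.43 in intact samples, and at 0.564 to 0.891 in castrated and 1.21 to 1.24 in intact samples. That list had a median of -0.34 over 2 tested and summed to 6.02 to 11.6 in castrated and 8.2 to 10.7 in intact samples, with 0 calls in limma, edgeR and DESeq2 and 0 at an unadjusted p under 0.05.

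Leukocyte genes had a median of 0.04 over 8 tested (394 to 555 summed in castrated and 315 to 497 in intact samples), with 0 calls in limma, 1 higher at an unadjusted p under 0.05, 0 in edgeR and 1 higher in DESeq2. Laptm5 was at 90.4 to 146 in castrated and 89.8 to 131 in intact samples and Coro1a at 67.8 to 87.8 in castrated and 61.1 to 92.9 in intact samples. Schwann cell genes had a median of 0.09 over 5 tested, with 0 calls in limma, edgeR or DESeq2 and 0 at an unadjusted p under 0.05. They summed to 135 to 175 in castrated and 120.1 to 167 in intact samples, with Mbp at 121 to 161 in castrated and 111 to 142 in intact samples and Prx at 6.14 to 7.31 in castrated and 5.67 to 7.1 in intact samples. Adipocyte genes had a median of 1.30 over 4 tested, with the same counts of 0. They summed to 46.1, 23.8, 90.8 and 8.34 in castrated samples 1 to 4, against 7.28 and 13.8 in intact samples 1 and 2. Fabp4 was at 6.7 to 34.5 in castrated and 6.23 to 6.72 in intact samples and Cfd at 0.403 to 39.6 in castrated and 0 to 4.67 in intact samples. Of 3 genes that mark interstitial cells of Cajal, with a median of 0.24, the channel gene Ano1, which epithelium also expresses, fell 2.48-fold (limma adjusted p = 0.0213). The call was lost without castrated sample 2 or 3 (limma adjusted p = 0.0597 and 0.0737) and without intact sample 1 or 2 (limma adjusted p = 0.167 and 0.173). Kit was at 15 to 31.8 in castrated and 18.7 to 20.4 in intact samples.

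**Figure D4:**
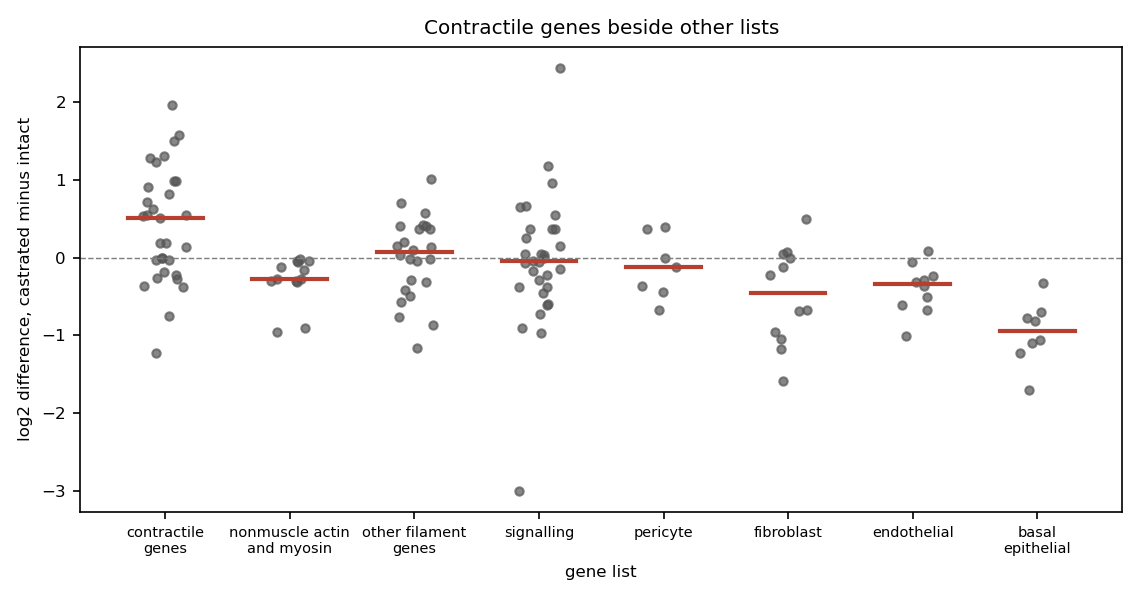
Log2 difference, castrated minus intact, of each tested gene (points) and the median (red line) of the contractile genes and of 7 other lists. The contractile genes have a median of 0.51 (0.27 after quantile normalization). The medians are 0.06 for the other filament genes and -0.05 for the signalling genes. The nonmuscle, pericyte, fibroblast, endothelial and basal epithelial lists also have medians below 0.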

How the data were processed

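RNA of 6 prostate samples was sequenced. For each sample the authors deposited CPM, gene read counts scaled to a fixed library total. TopHat2, HTSeq, edgeR and the build mm10 are named, without versions, per the submitters' processing notes. Every CPM value was a whole multiple of the smallest value above 0 in its sample, within a relative tolerance of 1e-06, so whole reads were recovered for 100% of values, and totals give the depth. A count of 0 allows up to 3 reads, or 0.0507 to 0.0687 CPM, which covers counting error only.

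Size factors were medians of ratios to the geometric mean, and CPM were divided by them. The filter asked for 2 or more samples with a deposited CPM of 1 or more. Genes that passed were fitted with limma 3.58.1 in R 4.3.3 on log2(rescaled CPM + 0.5), moderated with a mean-variance trend, two-sided, Benjamini-Hochberg adjusted over all 13898 genes at a threshold of 0.05. Fold changes are on that scale and understate weakly expressed genes. edgeR 4.0.16 and DESeq2 1.42.0 took the recovered reads as input. The main limma fit and the edgeR and DESeq2 fits were first run on simulated counts, and the other settings were not. Positions, exon lengths and overlaps are from GENCODE on GRCm38, and promoters from RefSeq.

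All 32 listed genes are named. Of each related list the called genes are named, or the 2 largest differences where none was called, and of marker lists the 2 highest genes. Srf, Adra1d, Ckm, the other heart markers, Kit, Tpm3 and the nonmuscle relatives were added after their values were seen. The listed genes and the other lists were chosen with earlier results of these data known. A planned comparison of actin proteins was not made, and a few genes that this rule or the design would name are not reported here.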

Additional observations from a re-analysis of the deposited data

Results flagged for a closer look

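Actn1 in castrated sample 2 and Ldb3 in castrated sample 1 lay far from the other castrated samples. Actn1 was at 95.4 rescaled CPM there, below 126 to 129 in the other castrated samples, and Ldb3 was at 2.5, above 0.902 to 0.982. The gap made up 0.93 of the group's range for Actn1 and 0.927 for Ldb3, past Dixon's 95% critical value for 4 samples. Chance alone flags about 1 in 20 groups, and 31 genes were screened.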

How the results depend on the processing

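Genes called over the whole table numbered 274. They numbered 170 with no filter on low values, 954 with array weights and 1293 in DESeq2. Listed genes called higher numbered 1, against 0 with no filter, 0 with no mean-variance trend, 5 with array weights, 0 in edgeR and 11 in DESeq2. Listed genes called lower numbered 1, against 0 with no filter, 0 on CPM as deposited, 2 with array weights and 2 in DESeq2. The median log2 difference of 0.51 was 0.27 after quantile normalization.

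Leaving out each sample in turn gave 1 to 1052 calls over all genes, 0 to 3 listed genes higher, 0 to 2 lower and a median of 0.30 to 0.61. The calls over all genes were 78, 83, 46 and 1052 without castrated sample 1, 2, 3 and 4, and 9 and 1 without intact sample 1 and 2.

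Samples of the groups share the numbers 1 and 2 but no stated origin. Deviations from the group means of same-numbered samples correlated at 0.08 and 0.23 over 13898 genes. The deviations of the 2 intact samples mirror each other, so the crossed pairs were bound to give -0.08 and -0.23. These correlations do not settle whether the samples are paired. With the replicate number as a block, 417 genes were called, 6 listed genes were called higher and 0 lower, and the median was 0.72. That fit compares castrated samples 1 and 2 with intact samples 1 and 2, and castrated samples 3 and 4 do not enter its differences.

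Of the 31 genes, 24 kept the sign of their difference under every alternative run, among them all 11 whose castrated samples all lay higher. The sign of these 11 could hardly turn, because they were taken for having every castrated value above both intact values. The signs of 7 genes turned, and the cause was not tested. Cald1 had -0.09 with the block, -0.04 without castrated sample 4 and -0.12 without intact sample 2, in leave-one-out fits that reached 0.47. Ldb3 had -0.33 without intact sample 1 and 1.39 without intact sample 2. Pdlim7 had -0.04 without intact sample 2 and 0.31 without intact sample 1. Nexn had 0.02 on CPM as deposited, 0.02 without castrated sample 2 and 0.03 without intact sample 2. Ppp1r14a had 0.02 on CPM as deposited, 0.02 with array weights, 0.27 with the block, and 0.14, 0.03 and 0.25 without castrated sample 3, castrated sample 4 and intact sample 1, and as low as -0.28 without intact sample 2. Smtn had 0.04 on CPM as deposited, 0.00 after quantile normalization, 0.00 in edgeR, 0.01 in DESeq2, and 0.11, 0.02 and 0.11 without castrated sample 1, castrated sample 2 and intact sample 1, and as low as -0.14 without intact sample 2. Tpm2 had 0.02 on CPM as deposited, 0.04 with array weights, 0.03 with the block, 0.01 in edgeR, 0.01 in DESeq2, and 0.08, 0.10 and 0.16 without castrated sample 1, castrated sample 3 and intact sample 1, and as low as -0.21 without intact sample 2.

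Depth limits Myocd, Ldb3, Ppp1r14a and Kcnmb1 most, and 2 intact samples give a poor estimate of their spread.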
